A study of Mus musculus with 3 samples.

Results

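The 9 genes described here write, copy, oxidise and excise the methyl mark on DNA: Dnmt1, Dnmt3a, Dnmt3b, Dnmt3l, Uhrf1, Tet1, Tet2, Tet3 and Tdg. They were taken by name, not by a cut on their values, from 39179 genes measured by RNA-seq in the mouse embryonic stem cell (ESC) line E14tg2a. Earlier results of these data were known when they were chosen. All cells were grown in medium with serum and leukaemia inhibitory factor (Serum Plus LIF), where LIF is the cytokine that holds mouse ESCs in the undifferentiated state. There were 3 libraries, 1 per group: unmodified parental cells (WT), cells with both Zmym2 alleles disrupted by Cas9 frameshifts (KO), and cells carrying an integrated PiggyBac Zmym2 transgene (OE). Zmym2, also called Zfp198, encodes a zinc finger protein that binds chromatin regulators. The KO line is a single clone from sorted cells, the OE cells were drug-selected, and none of the 3 libraries is labelled as an empty-vector control, so cloning, selection and the transgene cannot be told apart within a group.

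The sample titles and the cell line descriptions exchange KO and OE, and the titles were followed. Zmym2 itself had 7956 normalised counts in WT, 4370 in the library titled KO and 57139 in the library titled OE. The OE level was 7.18-fold that of WT and the KO level 0.549 of it, and a frameshift need not lower transcript levels. Zmym2 lies in a stretch of chromosome 14 between 50 and 80 Mb, where 215 of 222 genes were lower in KO and the median KO ratio was 0.566. None of the 9 genes lies on that chromosome. The KO line thus differed from WT in this stretch as well as in Zmym2, and the part of each in the KO ratios cannot be told apart. The libraries held between 41840774 and 50120551 reads in genes. All 10 pluripotency markers were detected in each library, and none was 2-fold apart from WT.

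DNMT3A and DNMT3B place methyl groups on unmethylated CpG sites, helped by DNMT3L, a relative without catalytic activity. DNMT1, guided to newly replicated DNA by UHRF1, copies the pattern to the daughter strand. The TET enzymes oxidise methylcytosine and TDG excises the oxidised bases, and mouse ESCs are known for high levels of both Dnmt3 and Tet1 transcripts that shift as the cells leave the naive state.

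Promoter sequences were available in RefSeq (GRCm38.p6) for 9 of 9 genes, at 16 annotated starts, each from 250 bases before the start to 50 after it. Those of the 4 genes on which the comparisons below turn are printed 5′ to 3′ on the strand of the gene, with every CpG in capitals, because CpG is the site that these enzymes act on. They are chr12:3806730-3807029 and chr12:3891494-3891793 for Dnmt3a, chr2:153649199-153649498 for Dnmt3b, chr10:78042037-78042336 and chr10:78055085-78055384 for Dnmt3l, and chr10:62887275-62887574 for Tet1, which is on the minus strand while the others are on the plus strand.
Dnmt3a, first start: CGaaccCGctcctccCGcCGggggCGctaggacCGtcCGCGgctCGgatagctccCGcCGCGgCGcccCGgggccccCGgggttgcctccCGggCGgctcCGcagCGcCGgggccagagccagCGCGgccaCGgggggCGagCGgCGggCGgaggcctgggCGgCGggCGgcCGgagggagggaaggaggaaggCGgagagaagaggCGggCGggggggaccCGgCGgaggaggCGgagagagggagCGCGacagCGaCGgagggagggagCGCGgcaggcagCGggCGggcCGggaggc
Dnmt3a, internal start: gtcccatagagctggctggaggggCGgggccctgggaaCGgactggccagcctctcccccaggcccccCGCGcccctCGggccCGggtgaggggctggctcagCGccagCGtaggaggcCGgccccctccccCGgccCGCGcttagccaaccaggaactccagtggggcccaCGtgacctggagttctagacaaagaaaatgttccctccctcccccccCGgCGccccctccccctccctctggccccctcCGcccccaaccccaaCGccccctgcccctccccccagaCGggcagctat
Dnmt3b: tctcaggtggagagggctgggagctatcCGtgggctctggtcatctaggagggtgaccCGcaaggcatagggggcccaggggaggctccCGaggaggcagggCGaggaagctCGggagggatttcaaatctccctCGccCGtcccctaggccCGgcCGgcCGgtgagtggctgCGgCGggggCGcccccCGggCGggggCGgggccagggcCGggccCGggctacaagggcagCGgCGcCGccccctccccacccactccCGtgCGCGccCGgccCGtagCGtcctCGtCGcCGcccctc
Dnmt3l, first start: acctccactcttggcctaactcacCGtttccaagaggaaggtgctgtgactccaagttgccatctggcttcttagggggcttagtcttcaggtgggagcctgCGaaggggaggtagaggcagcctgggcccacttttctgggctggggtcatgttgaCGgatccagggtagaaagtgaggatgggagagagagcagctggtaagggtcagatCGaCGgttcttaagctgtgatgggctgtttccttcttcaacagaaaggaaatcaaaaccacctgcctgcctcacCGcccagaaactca
Dnmt3l, last start: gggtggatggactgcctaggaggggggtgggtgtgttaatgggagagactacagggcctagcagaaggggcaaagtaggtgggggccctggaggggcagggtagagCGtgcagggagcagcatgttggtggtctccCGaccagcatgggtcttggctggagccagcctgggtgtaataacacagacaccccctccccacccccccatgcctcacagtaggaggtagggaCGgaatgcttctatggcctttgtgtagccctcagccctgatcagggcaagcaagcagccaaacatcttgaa
Tet1: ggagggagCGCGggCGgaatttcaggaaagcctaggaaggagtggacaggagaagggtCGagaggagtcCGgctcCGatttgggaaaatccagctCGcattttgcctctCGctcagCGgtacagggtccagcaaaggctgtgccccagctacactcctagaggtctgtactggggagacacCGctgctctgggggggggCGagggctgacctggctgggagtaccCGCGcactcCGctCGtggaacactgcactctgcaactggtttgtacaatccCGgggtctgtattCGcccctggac

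The first Dnmt3a start held 46 CpGs in 300 bases and the internal one 18, against a median of 7 over 32851 promoters. The Dnmt3b start held 30, the Tet1 start 17, and the first and last Dnmt3l starts 6 and 3. Of all promoters, 43.6% had fewer CpGs than the first Dnmt3l start and 23.3% fewer than the last. The first Dnmt3l start was thus near the median and the last below it, while the printed Dnmt3a, Dnmt3b and Tet1 starts were above it. DNMT3A2, a shorter form of DNMT3A that is common in mouse ESCs, is made from an internal start, and counts per gene do not separate the starts. Searched on both strands, the GC box GGGCGG was in 12 of the 16 starts and in 35.7% of all promoters. The CCAAT box (CCAAT) was in 6 of 16 against 37.4%, and the E-box CACGTG was in 3 of 16 against 7.15%. CACGTG was in the internal Dnmt3a window shown above. None of the 3 motifs contains another, these are letter matches, and binding was not measured.

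Levels are normalised counts, which are reads per gene divided by a factor for the size of each library, and levels of different genes were compared per kilobase of exon. In WT the order per kilobase was Dnmt3l, Dnmt3b, Uhrf1, Tet1, Dnmt1, Dnmt3a, Tet2, Tdg and Tet3. The highest was 5787 normalised counts per kilobase for Dnmt3l and the lowest 77.5 for Tet3. Of all genes counted, 98.0% had a lower level per kilobase than Dnmt3l in WT, and 25.4% a lower one than Tet3. KO had the same order, with 8028 normalised counts per kilobase for Dnmt3l and 7988 for Dnmt3b, whose 95% counting intervals overlapped. In OE the order was Dnmt3b, Uhrf1, Dnmt3l, Dnmt1, Tet1, Tet2, Dnmt3a, Tdg and Tet3. Dnmt3l thus moved from first place in WT to a place below Uhrf1, Dnmt1 stood above Tet1, and Tet2 stood above Dnmt3a. With the length of the longest transcript in place of all exons, the WT levels were 9490 normalised counts per kilobase for Dnmt3l and 119 for Tet3, and the KO levels 13165 for Dnmt3l and 9442 for Dnmt3b, which then were apart. Dnmt3l then stood above Uhrf1 in OE, and the other places were unchanged. With the length of all exons, no other neighbours had overlapping intervals. With the longest transcript, overlap was not examined, and Dnmt3b and Dnmt3l were close in OE at 5233 and 5158 normalised counts per kilobase. With 1 library per group, no difference could be set against the spread between cultures, no test was run, and the intervals cover counting error only.

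**Figure D1:**
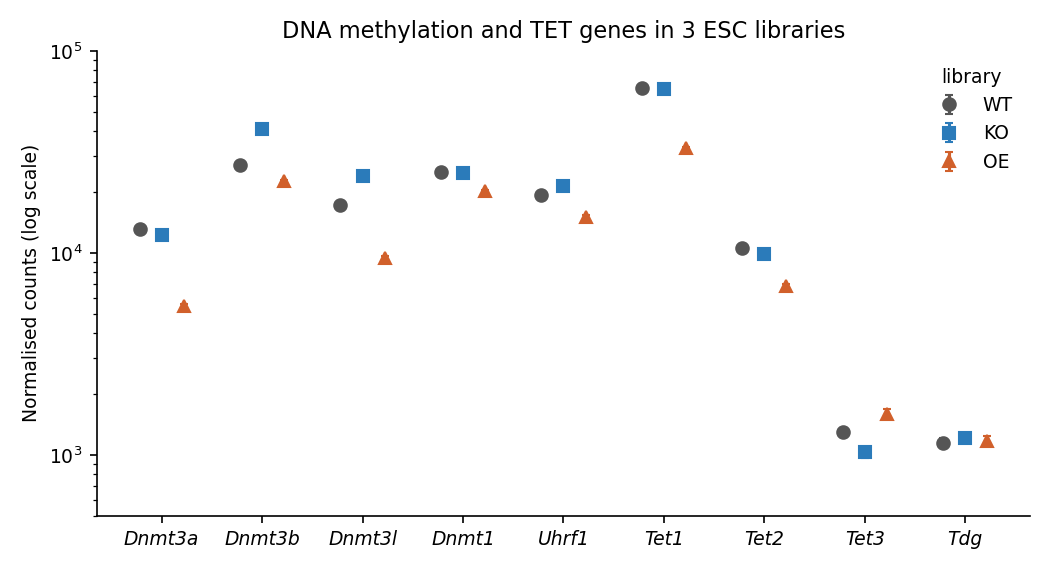
Normalised counts of the 9 genes (log scale) in WT, KO and OE, 1 library each. Bars are exact 95% Poisson intervals, mostly smaller than the symbols. OE lies lowest for Dnmt3a, Dnmt3b, Dnmt3l, Dnmt1, Uhrf1, Tet1 and Tet2, KO lies highest for Dnmt3b, Dnmt3l, Uhrf1 and Tdg, and OE lies highest for Tet3.

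The comparison of OE with WT asks how the methylation machinery stood in cells with extra Zmym2. In OE, 7 of the 9 genes were below WT, among them all 3 Dnmt3 genes, both maintenance genes, Tet1 and Tet2. Dnmt3a, Tet1, Dnmt3l and Tet2 were at least 1.5-fold lower, 4 of 9 against 8.33% of all genes counted. Only Dnmt3a was at least 2-fold lower, 1 of 9 against 3.12% of the 12896 genes that averaged 50 normalised counts or more. None was 2-fold higher, against 9.74%. All 9 averaged 1000 normalised counts or more. Among all genes at that level, a minimum chosen after seeing the data, 1.19% were 2-fold lower and 3.78% higher. The median log2 ratio of the 9 genes was -0.36, beside -0.02 over all genes, of which 52.2% were below WT. All 9 genes passed the minimum level. In bulk RNA, fewer cells of a kind and less RNA per cell cannot be told apart.

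Dnmt3a (ENSMUSG00000020661, chromosome 12, 3806007 to 3914443 in GRCm38) encodes a de novo methyltransferase. It had 13052 normalised counts in WT, 12211 in KO and 5443 in OE. OE stood apart from the other libraries, at 0.417 of WT (95% counting interval 0.404 to 0.431). Of all genes counted, 1.84% had a lower OE ratio. Dnmt3l (ENSMUSG00000000730, chromosome 10, 78041947 to 78063622), the cofactor without catalytic activity, had 17291 normalised counts in WT, 23987 in KO and 9397 in OE. It was low in OE, at 0.543 of WT (0.530 to 0.558), and high in KO. Dnmt3b (ENSMUSG00000027478, chromosome 2, 153649450 to 153687730), the other de novo enzyme, had 27253 normalised counts in WT, 40788 in KO and 22606 in OE. Its OE ratio of 0.829 (0.815 to 0.844) was nearer to 1 than those of Dnmt3a and Dnmt3l, whose intervals do not overlap it.

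Tet1 (ENSMUSG00000047146, chromosome 10, 62804570 to 62908996), the main TET enzyme of ESCs, had 65776 normalised counts in WT, 64670 in KO and 33034 in OE. OE was at 0.502 of WT (0.495 to 0.509), just short of the 2-fold threshold, and past it at a log2 ratio of -1.01 when libraries were scaled to 12 housekeeping genes. Tet2 (ENSMUSG00000040943, chromosome 3, 133463679 to 133545139), which lacks the CXXC DNA-binding domain of TET1 and TET3, had 10550 normalised counts in WT, 9894 in KO and 6848 in OE. Its OE level was 0.649 of WT (0.629 to 0.670). Tet3 (ENSMUSG00000034832, chromosome 6, 83362373 to 83459084), known for oxidising the paternal genome in the zygote, went the other way. It had 1294 normalised counts in WT, 1030 in KO and 1597 in OE. OE was the highest library, at 1.23 of WT (1.15 to 1.33).

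Both maintenance genes were below WT in OE. Dnmt1 (ENSMUSG00000004099, chromosome 9, 20907209 to 20959888) had 25165 normalised counts in WT, 24752 in KO and 20186 in OE, an OE ratio of 0.802 (0.787 to 0.817). Uhrf1 (ENSMUSG00000001228, chromosome 17, 56303321 to 56323486), which reads hemimethylated CpG and recruits DNMT1, had 19243 normalised counts in WT, 21491 in KO and 15044 in OE, an OE ratio of 0.782 (0.765 to 0.799). The intervals of these 2 ratios overlap. Tdg (ENSMUSG00000034674, chromosome 10, 82629828 to 82650799), the glycosylase, had 1143 normalised counts in WT, 1208 in KO and 1171 in OE. Its OE ratio of 1.02 (0.942 to 1.11) includes 1, so a difference was not detectable at this depth.

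**Figure D2:**
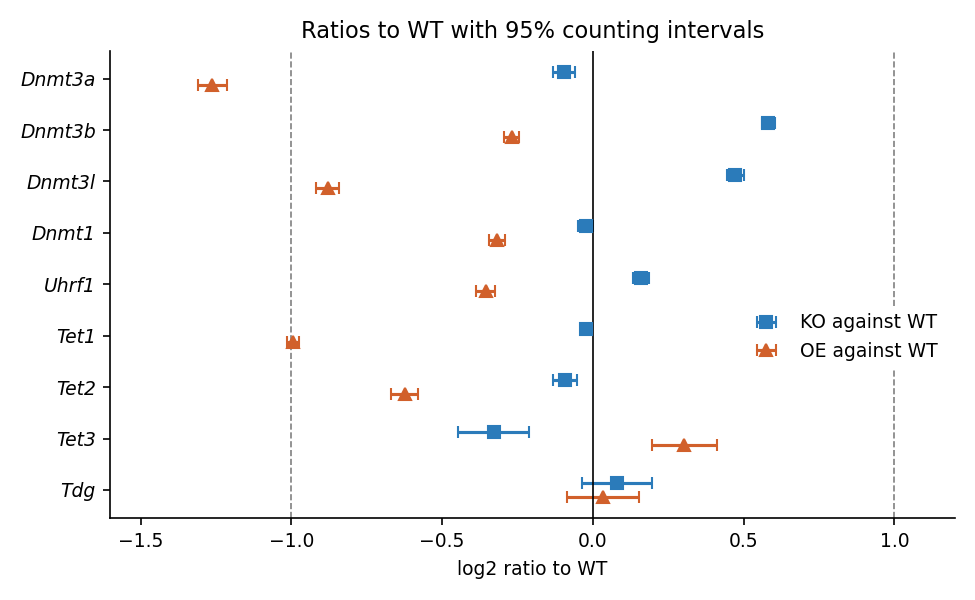
Log2 ratio to WT of the 9 genes in KO (squares) and OE (triangles), 1 library each, with exact 95% counting intervals. Dashed lines mark 2-fold. In OE only Dnmt3a lies beyond the line, with Tet1 on it at a ratio of 0.502, while the KO values lie within it, from 0.796 for Tet3 to 1.497 for Dnmt3b.

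Markers of other cell types moved with these values in OE. The summed level of the 10 pluripotency markers was 225193 normalised counts in WT, 206780 in KO and 176101 in OE. That of 5 primitive streak markers was 492, 517 and 7322, with Mesp1 at 0 in OE, and in OE all 4 that were counted stood 2-fold or more above WT, while in KO 2 of them stood as far below. That of 6 trophectoderm markers was 3026, 1210 and 32957, with 5 of 5 counted higher in OE and 3 lower in KO. Krt8 and Krt18 held most of the OE sum, at 18258 and 12754, and Elf5, which was not counted, had 6.61, 6.06 and 5.50. Mixl1 and Cdx2 had under 50 normalised counts in WT and reached the minimum through OE. The OE library thus held more transcript of most listed markers of both lineages and somewhat less of the pluripotency markers. Of 6 fibroblast markers counted, 4 were higher in OE, and in KO 3 were lower and 1 higher, with sums of 1331, 654 and 6151 and with Lum at 0 in WT and Col3a1 and Postn at 0 in KO. Dcn, at 5.67, 22.2 and 133, also reached the minimum through OE. Sums of 8 neuronal and neural progenitor markers were 10318, 7217 and 23779, and of 7 counted, 3 were higher and 2 lower in OE and 2 lower in KO. The 5 primitive endoderm markers summed to 373, 344 and 549 with none 2-fold apart, and the 5 epiblast markers to 5655, 8535 and 6948 with 2 of 5 higher in OE. Of all genes, 9.74% were 2-fold higher and 3.12% lower in OE, and 2.43% higher and 3.09% lower in KO. The part of these cell types in the ratios of the 9 genes was not tested.

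In KO, the comparison asks how the same genes stood without intact Zmym2, and here Dnmt3b and Dnmt3l were above WT while the TET genes were at or below it. None of the 9 genes was 2-fold apart, against 2.43% of all genes at least 2-fold higher and 3.09% lower. Among genes that averaged 1000 normalised counts or more, as all 9 did, these shares were 0.368% and 1.12%. Their median log2 ratio was -0.02, beside -0.03 over all genes, and 5 of 9 were below WT against 55.3% of all genes. Dnmt3b was highest at 1.497 of WT (1.47 to 1.52), and 94.7% of genes had a lower KO ratio. Dnmt3l followed at 1.39 (1.36 to 1.41), and 93.2% of genes had a lower one. Both stood above WT and OE alike, the KO library being the highest of the 3. Dnmt3a, the other enzyme of the family, did not share this, with a ratio of 0.936 (0.913 to 0.959).

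Uhrf1 was slightly above WT in KO, at 1.12 (1.10 to 1.14), and Dnmt1 was at 0.984 with an interval that includes 1. Among the TET genes, Tet1 was at 0.983 (0.973 to 0.994) and Tet2 at 0.938 (0.913 to 0.964). Tet3 was lowest at 0.796 (0.733 to 0.864), so its lowest library was KO and its highest OE. Tdg was at 1.06 with an interval from 0.975 to 1.15 that includes 1. The interval left out 1 for 7 of the 9 genes, against 60.5% of all genes in KO, and for 8 of 9 in OE, against 72.1%, so an interval apart from 1 is common in these libraries.

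**Figure D3:**
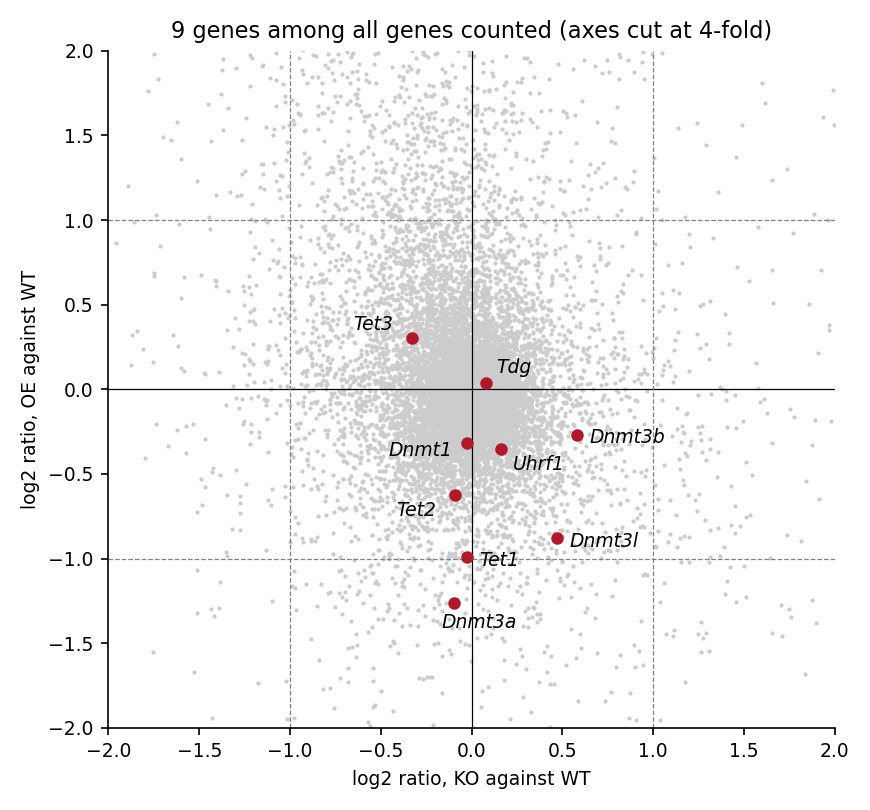
Log2 ratio to WT in KO (horizontal axis) and in OE (vertical axis) for the genes counted (grey points) and the 9 genes (red), with axes ending at 4-fold and dashed lines at 2-fold. Both axes share the WT library. Dnmt3a and Tet1 lie low on the OE axis with KO ratios of 0.936 and 0.983, while Dnmt3b and Dnmt3l lie to the right with OE ratios of 0.829 and 0.543.

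Compared directly, OE against KO, 8 of the 9 genes were lower in OE, against 49.8% of all genes, and Tet3 alone was higher. Dnmt3l and Dnmt3a were at least 2-fold lower, 2 of 9 against 5.47% of all genes, and none was 2-fold higher, against 12.9%. Among genes that averaged 1000 normalised counts or more, as all 9 did, 1.9% were lower and 6.11% higher. Dnmt3l was at 0.392 (0.382 to 0.402), Dnmt3a at 0.446 (0.431 to 0.461) and Tet1 at 0.511 (0.504 to 0.518). Dnmt3b, which was apart from WT in opposite directions in the 2 lines, was at 0.554 (0.545 to 0.564) of its KO level. Tet3 was 1.55-fold (1.43 to 1.68) higher in OE than in KO. The median log2 ratio of the 9 genes was -0.53, beside 0.00 over all genes. The comparisons with WT share that library, and this one shares KO and OE with them, so the 3 are not independent.

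Summed per kilobase, the 3 Dnmt3 genes had 11909 normalised counts in WT, 16750 in KO and 7900 in OE. Dnmt3b made up 44.8%, 47.7% and 56.0% of these sums, Dnmt3l 48.6%, 47.9% and 39.8%, and Dnmt3a 6.59%, 4.38% and 4.14%. The de novo group was thus highest in KO and lowest in OE, and Dnmt3b took the largest share in OE. The 3 TET genes summed to 4958 normalised counts per kilobase in WT, 4832 in KO and 2639 in OE. Tet1 held 85.8%, 86.6% and 81.0% of them and Tet3 1.56%, 1.28% and 3.62%. Dnmt1 and Uhrf1 summed to 7929, 8401 and 6269. Together the 9 genes took 0.382% of WT reads, 0.421% of KO reads and 0.250% of OE reads.

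**Figure D4:**
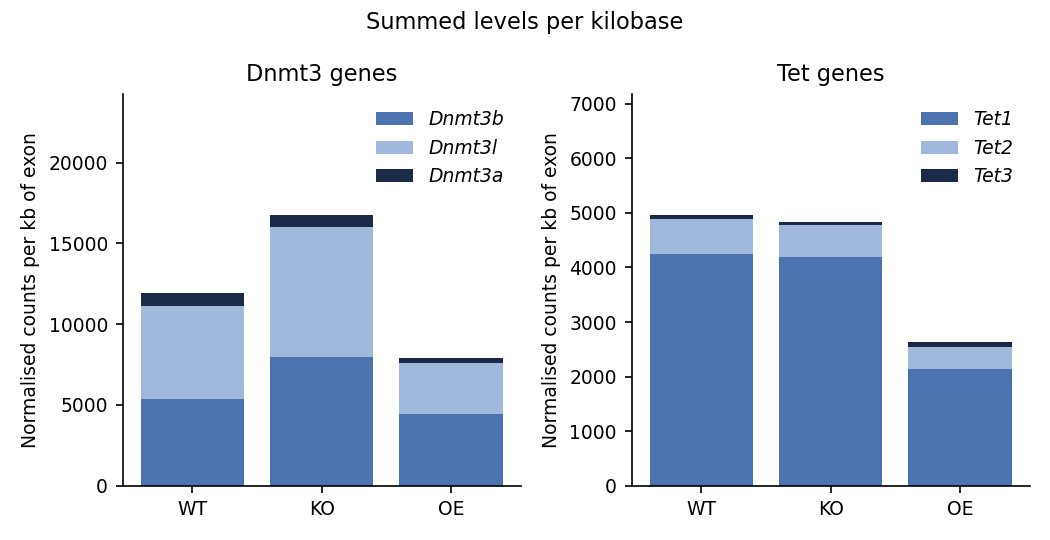
Levels per kilobase of exon, stacked for the Dnmt3 genes (left) and the Tet genes (right), in WT, KO and OE, 1 library each and drawn without error. The Dnmt3 sum is highest in KO at 16750, the Tet sums of WT and KO are close at 4958 and 4832, and both sums are lowest in OE.

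Ratios between 2 genes of the same library do not depend on how libraries are scaled. Dnmt3b over Dnmt3a, per kilobase, was 6.81 in WT (95% counting interval 6.67 to 6.95), 10.9 in KO (10.7 to 11.1) and 13.5 in OE (13.1 to 13.97). The balance of these enzymes was thus further towards Dnmt3b in both modified lines, in KO with a higher Dnmt3b level and in OE with a lower Dnmt3a level. Dnmt3l over Dnmt3b was 1.08 in WT, 1.005 in KO and 0.710 in OE (0.693 to 0.729), and with the longest transcript 1.504, 1.39 and 0.986, so the size of this ratio rests on the length used. Tet1 over Tet3 was 54.9 in WT (52.0 to 57.9), 67.8 in KO (63.7 to 72.2) and 22.3 in OE (21.2 to 23.6). Tet1 over Dnmt1, an oxidising against a maintaining enzyme, was 1.25 in both WT and KO and 0.781 in OE (0.767 to 0.796). Uhrf1 over Dnmt1 was 1.32 in WT, 1.504 in KO and 1.29 in OE (1.26 to 1.32), with the last interval overlapping that of WT (1.30 to 1.35). With the longest transcript, Dnmt3b over Dnmt3a was 4.68, 7.49 and 9.31, and Tet1 over Tet3 was 38.6, 47.6 and 15.7. Tet1 over Dnmt1 was then 1.07, 1.07 and 0.669, and Uhrf1 over Dnmt1 1.25, 1.42 and 1.22. The size of these ratios thus also rests on the length used. A change of length multiplies a ratio by the same factor in each library, so it could not change the order of the libraries.

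Genes near the 9 were compared with them. On the chromosomes that hold them, the median ratio of all genes lay between 0.961 and 1.03 in KO and OE. Within 1 Mb on each side of Dnmt3a, 18 genes had a median OE ratio of 0.908 and none was 2-fold lower. Around Tet1, 20 genes had a median OE ratio of 0.824, and 2 were 2-fold lower. The share 2-fold lower in OE was 3.12% over all genes counted. Around the other members it was between 0 genes, for Tdg, and 2 of 28, for Tet3. The first Dnmt3l start lies within Aire, a gene on the opposite strand (ENSMUSG00000000731, chromosome 10, 78030022 to 78043610) known for the display of tissue antigens in the thymus, which was singled out after its values were seen. Aire had 1677 normalised counts in WT, 3786 in KO and 505 in OE. It was thus high in KO at 2.26 of WT (2.13 to 2.39) and low in OE at 0.301 (0.271 to 0.334), in the same order as Dnmt3l. Reads were counted by strand, and whether any reads of one gene were given to the other was not tested. The antisense transcripts Dnmt3aos and Dnmt3bos had at most 1.01 and 13.1 normalised counts.

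The 5 genes whose pattern over the 3 libraries was most like that of Dnmt3a, by distance in log2 KO and OE ratios to WT, were Atcay, Map1a, Trib3, Rlbp1 and Acacb. Their distances ran from 0.0048 to 0.084 among 10595 genes that averaged 200 normalised counts or more. Atcay, which encodes the neuronal protein caytaxin, had 401 normalised counts in WT, 374 in KO and 166 in OE. Map1a, a microtubule-associated protein gene, had 5303, 4817 and 2211. By the way they were chosen, all 5 were close to WT in KO and low in OE. Their OE ratios ran from 0.398 (0.311 to 0.507) for Rlbp1 to 0.423 (0.361 to 0.494) for Trib3. The counting interval of the log2 OE ratio of Atcay, from -1.55 to -0.998, was wide beside its distance of 0.0048.

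Partners of the 9 genes were counted in lists chosen by known role, with earlier results of these data known. Of 10 partners of maintenance methylation, none was 2-fold apart in OE or KO, and 9 were below WT in OE, against 52.2% of all genes, with a median log2 ratio of -0.20. Hells, a chromatin remodeller needed for normal methylation, had 35839 normalised counts in WT, 40199 in KO and 26265 in OE. Usp7, a deubiquitinase that binds DNMT1 and UHRF1, had 37855, 38250 and 30486. Both were lowest in OE, as Dnmt1 and Uhrf1 were. The 14 DNA replication genes, which are active in the same phase of the cell cycle as Dnmt1 and Uhrf1, were all below WT in OE, against 52.2% of all genes, with ratios from 0.692 to 0.944 and a median log2 ratio of -0.29. None was 2-fold apart in OE or KO. Mcm2, a subunit of the replicative helicase, had 26615, 27720 and 21236 normalised counts, and Mcm5, another subunit, 26124, 22529 and 20264. The OE ratios of Dnmt1, Uhrf1 and Dnmt3b, 0.802, 0.782 and 0.829, lay within the range of these replication genes, and those of Dnmt3a, Tet1, Dnmt3l and Tet2 lay below it.

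Of 17 regulators of de novo methylation, 2 were at least 2-fold lower in OE and none higher, against 3.12% and 9.74% of all genes. In KO 1 was higher and none lower, against 2.43% and 3.09%. Dppa3, which encodes STELLA, a protein that binds UHRF1, had 805 normalised counts in WT, 2370 in KO and 152 in OE. It was lowest in OE at 0.189 of WT (0.156 to 0.226) and highest in KO at 2.94 (2.72 to 3.19), the same order of libraries as Dnmt3l and Dnmt3b. Prdm14, known to repress Dnmt3b and Dnmt3l in naive mouse ESCs, had 715 normalised counts in WT, 534 in KO and 347 in OE. It was lower in OE at 0.485 of WT (0.424 to 0.553), and in KO it was at 0.747 (0.667 to 0.836). The list's median log2 ratio was -0.20 in OE and -0.07 in KO.

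Of 22 partners of oxidation and base excision repair, 20 passed the minimum level. Gadd45b, a stress-induced gene linked to demethylation, was the 1 that was 2-fold higher in OE, against 9.74% of all genes, with 334 normalised counts in WT, 423 in KO and 854 in OE. None was 2-fold lower in OE or 2-fold apart in KO, and the median log2 ratios were -0.07 and 0.03. The lowest KO ratio among those counted was that of Apex1, an endonuclease gene at 50924968 to 50927139 of chromosome 14, within the stretch around Zmym2. It had 7150 normalised counts in WT, 3951 in KO and 6767 in OE. Of 7 methyl-CpG readers, 5 were above WT in OE, against 47.8% of all genes, with a median log2 ratio of 0.46 in OE and -0.10 in KO. Zbtb4, a zinc finger protein gene of this class, was the 1 that was 2-fold higher in OE, with 59.5, 57.6 and 281 normalised counts.

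Of 13 genes that supply the methyl donor, 11 passed the minimum and none was 2-fold apart in OE or KO. Mat2a, which makes S-adenosylmethionine, had 31134 normalised counts in WT, 33645 in KO and 27354 in OE, and Mthfd1, of the folate cycle, had 16749, 16660 and 16323. The other Dnmt family genes were low. Trdmt1, which methylates transfer RNA, had 386, 300 and 359 normalised counts. Gm14490, the symbol under which Dnmt3c is listed, a rodent gene that acts in the male germ line, had at most 3.78 in a library, near the 2.83 to 3.30 normalised counts that 3 reads are worth.

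Germline genes whose promoters are known to be methylated in somatic cells were listed as 15 genes, of which 12 passed the minimum. The list was chosen with earlier results of these data known, so its counts are a description only. In KO 7 were at least 2-fold higher and none lower, against 2.43% of all genes higher, and the median log2 ratio was 1.16. Brdt and Taf7l, which are among the 7, had under 50 normalised counts in WT and reached the minimum through KO or OE. Among the 10 genes with at least 50 normalised counts in WT as well, an alternative chosen after seeing the data, 5 were 2-fold higher in KO and none lower, against 1.52% of all such genes higher, with a median log2 ratio of 1.04. The share of all genes 2-fold higher in KO was 9.16% at a mean of 50 to 200 normalised counts and 2.07% at 200 to 1000, and most of the germline genes lay within these ranges. Stk31, a testis kinase-like gene, had 286 normalised counts in WT, 1230 in KO and 156 in OE. Mael, which acts in silencing transposons in the germ line, had 480, 1806 and 557. Both were highest in KO, as Dnmt3b and Dnmt3l were. Taf7l, a germ cell paralogue of a general transcription factor subunit, had 44.4, 136 and 158, and Brdt, a testis bromodomain gene, had 27.4, 104 and 57.2, so these were above WT in both lines. In OE 3 of the 12 were higher, Brdt and Taf7l among them, and 1 lower, against 9.74% of all genes higher and 3.12% lower, with a median log2 ratio of -0.05. The share of all genes higher in OE was 22.6% at a mean of 50 to 200 normalised counts and 12.6% at 200 to 1000. Among the 10 genes, 1 was higher and 1 lower, against 7.78% and 3.05%, and the median was -0.36. The 3 genes under the minimum, Asz1, Dpep3 and Tex101, had at most 53.5 normalised counts. DNA methylation itself was not measured.

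**Figure D5:**
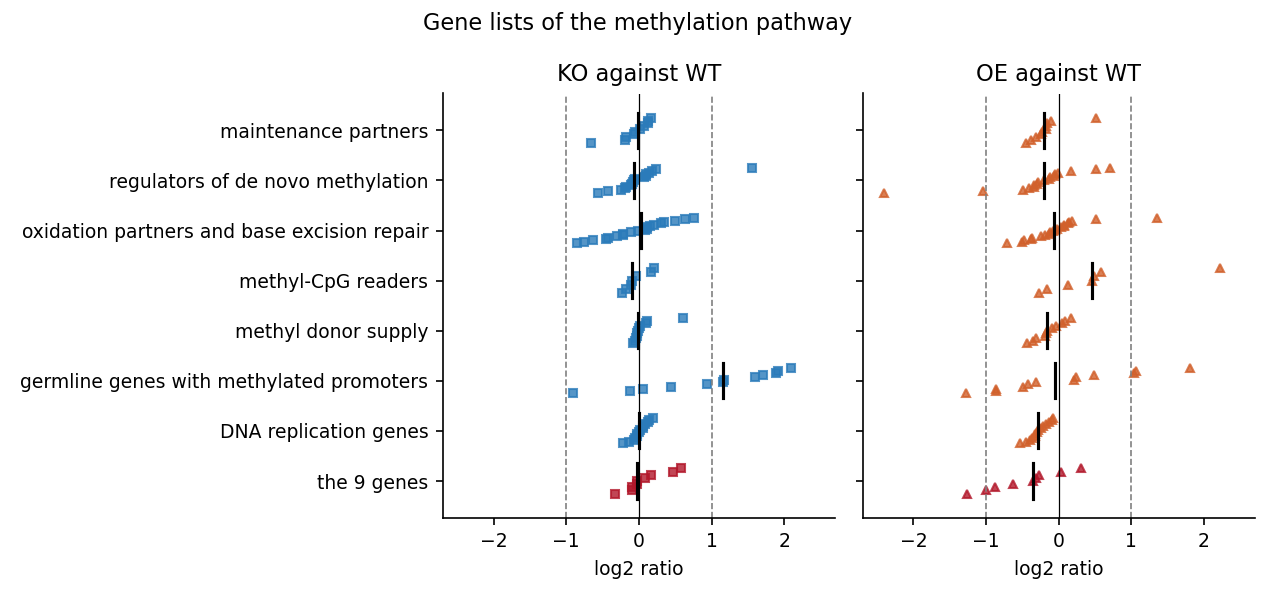
Log2 ratio to WT of each counted gene in 7 lists and of the 9 genes, in KO (left) and OE (right), with the list median as a black bar and dashed lines at 2-fold. The germline list is shifted up in KO with a median of 1.16, the methyl-CpG readers up in OE with 0.46, and the 14 replication genes all lie below WT in OE. The lists were chosen with earlier results of these data known.

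Repeat families, among them retrotransposons that DNA methylation is known to silence in the mouse, were counted in a table with its own size factors, and 81 of 312 families passed the minimum. Of 20 families of IAP, an endogenous retrovirus, 11 passed. In KO 9 of these were above WT and 1 was 2-fold higher, against 9.88% of all families, with a median log2 ratio of 0.53 beside 0.04 over all families. That family, IAPEYI, had 23.2 normalised counts in WT, 129 in KO and 30.2 in OE, and it reached the minimum through KO. Among the 9 IAP families with at least 50 normalised counts in WT as well, 7 were above WT in KO and none was 2-fold higher, against 7.89%, with a median log2 ratio of 0.51. The internal sequence IAPEZI had 9468 normalised counts in WT, 13678 in KO and 8895 in OE. In OE 8 of the 11 were above WT and 1 was 2-fold higher, against 6.17% of all families, with a median log2 ratio of 0.20 beside 0.11 over all families. The family that was 2-fold higher in OE, IAPEY4_I, had 1305, 942 and 3324 normalised counts. The 25 families of L1Md, young LINE elements, had median log2 ratios of -0.14 in KO and -0.04 in OE, and none was 2-fold apart. In KO 5 of the 25 were above WT. L1MdGf_I was lowest in KO at 0.510 of WT, with 17078, 8711 and 18401 normalised counts. L1MdA_I was at 0.592, and L1MdTf_I, the most abundant in WT, at 0.883. No family of the 81 was 2-fold lower in KO or OE. With the size factors of the gene table, the IAP medians were 0.78 in KO and 0.093 in OE, and those of L1Md 0.11 and -0.15. The direction of the L1Md median in KO thus turned with the scaling. So did that of L1MdTf_I, at 1.05 of WT, while L1MdGf_I and L1MdA_I stayed below WT, at 0.606 and 0.703. The IAP families IAPLTR1_Mm and IAPEY3_I had 118 and 57.9 normalised counts in WT. In KO they went from 1.98 and 1.81 of WT to 2.35 and 2.16, past 2-fold. The 2-fold counts above hold for the repeat table's own size factors. Counts and medians over all families were not taken with the other scaling. How reads matching several copies were assigned is not known from the sources used here.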

How the data were processed

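RNA of 3 ESC libraries, 1 each of WT, KO and OE, was sequenced. By the paper's methods and the submitters' processing notes, ribosomal RNA was removed and directional libraries were made. The authors then used Trim Galore for adaptor removal, TopHat2 for mapping to GRCm38 (mm10), featureCounts for strand-specific counts per gene and DESeq2 for size factors. The annotation release behind the counts is not stated in the sources used here. Each deposited signal value is a count that the authors divided by such a size factor. A further division by length is described, but 100% of the values used were whole multiples of 1 read (tolerance 1e-06). The repeat table holds the same kind of deposited signal. In all, 4 columns of levels were left out, among them a rescue line without a library here.

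Dividing each value by that of 1 read gave whole reads, 50120551 for WT, 46995766 for KO and 41840774 for OE (size factors 1.06, 0.990 and 0.909). Levels have exact Poisson intervals and ratios exact binomial (Clopper-Pearson) intervals at 95%. They cover counting error only, because there was 1 library per group. Reads were not tagged by molecule, so repeated reads of the same molecule were not told apart. Genes 2-fold apart were counted with a pseudocount of 1 among 12896 genes that averaged 50 normalised counts or more. Ratios of named genes carry no pseudocount. GENCODE M21, in which 99.2% of the genes counted were found, supplied exon lengths and positions.

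The 9 genes, the lists and the markers were chosen with earlier results of these data known. All 9 genes and Zmym2 are named. From each list, up to 4 genes are named that were 2-fold apart and reached 100 normalised counts in 1 of the libraries compared, by size of the ratio, or the 2 with the highest mean where none was. For a member 2-fold apart from WT, the 5 genes of nearest pattern are named. Aire, Apex1, the repeat families and the 3 germline genes under the minimum were named after their values were seen. Alternatives were scaling to total reads, housekeeping genes, Gapdh or TMM factors (edgeR), other pseudocounts, minimums and folds, a minimum in WT, and another gene length. The counting was tested on simulated data. Analyses ran in Python 3.11.15 (pandas 2.3.3, numpy 2.4.6, matplotlib 3.10.9, scipy 1.17.1) and in R 4.3.3 (edgeR 4.0.16).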

Additional observations from a re-analysis of the deposited data

How the results depend on the processing

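All 9 genes kept the direction of their ratio to WT, in OE and in KO, under 4 other scalings. A pseudocount is added alike to both levels and cannot change a direction, so the 2 other pseudocounts do not bear on it. The scalings moved the median of all genes by 0.10 or less on the log2 scale. The median log2 ratio of the 9 genes in OE against WT was -0.31 when scaled to total reads. Scaled to housekeeping genes, 2 members (Dnmt3a and Tet1) were 2-fold apart in OE against WT in place of 1, and the median log2 ratio was -0.094 in KO against WT and -0.48 in OE against KO. Scaled to Gapdh, these medians were -0.10 and -0.43. At 1.5-fold, 4 members were apart in OE against WT and 5 in OE against KO, and at 3-fold 0 and 0. Over all genes, 1659, 713 and 2374 were 2-fold apart in OE against WT, KO against WT and OE against KO. With a minimum mean of 10 they were 2563, 1391 and 3589, with 200 they were 959, 317 and 1434, and with 1000, an alternative chosen after seeing the data, 338, 101 and 544. At 1.5-fold the counts were 3123, 1785 and 4080, and at 3-fold 829, 262 and 1267. With a minimum of 50 in WT as well, also chosen after seeing the data, 0 IAP families in place of 1 were 2-fold apart in KO, and 2 germline genes in place of 4 in OE. The IAP counts hold for the repeat table's own size factors. The minimums and folds change the counts by their construction. A scaling likewise shifts all log2 ratios of a comparison by nearly the same amount. Scaled to housekeeping genes, this shift was -0.070 in KO against WT, where the median of the 9 genes went from -0.024 to -0.094. No paired analysis was possible because there was 1 library per group, and for the same reason no replicate could be left out. Depth limits Tdg and Tet3 most, with 1030 to 1597 normalised counts.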
